A study of Mus musculus with 2 samples.

Results

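The genes described are the 7 that code for the receptor parts of the neuropeptides CGRP (calcitonin gene-related peptide) and PACAP (pituitary adenylate cyclase-activating polypeptide), namely Calcrl, Calcr, Ramp1, Ramp2, Ramp3, Crcp and Adcyap1r1. They were chosen by symbol, for what they code for, from the 39098 genes listed in the 2 libraries, of which 36541 were listed for control and 32641 for CFA. The question was which cells of the trigeminal ganglion hold each receptor part, and which cells hold Calcrl together with a Ramp.

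The cells were dissociated from right trigeminal ganglia of male C57BL/6 mice aged 5 to 8 weeks and sequenced by BD Rhapsody whole transcriptome single-cell RNA-seq. The CFA library came from mice that were given 20 µL of complete Freund's adjuvant (CFA), an emulsion that inflames the tissue, into the right vibrissal pad and were sampled a week later. The control library is labelled untreated, and the study's methods describe saline in place of CFA. There was 1 library per condition, and the methods state how many mice each group had but not how many went into each library, so no difference between the libraries has a replicate check and none was tested.

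CGRP signals through a receptor made of 2 kinds of subunit. Calcrl codes for the calcitonin receptor-like receptor, a G protein-coupled receptor that needs a receptor activity-modifying protein to reach the cell surface and to choose its ligand. With the product of Ramp1 it binds CGRP, and with that of Ramp2 or Ramp3 it binds adrenomedullin, a peptide of blood vessels. Calcr codes for the calcitonin receptor, which pairs with the same Ramp proteins to make amylin receptors. Crcp codes for a component first described as needed for CGRP receptor coupling, and is also a subunit of RNA polymerase III. Adcyap1r1 codes for PAC1, the receptor that prefers PACAP over the related peptide VIP. CGRP, PACAP and these receptors are studied in the trigeminal ganglion for their part in migraine and facial pain.

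The libraries held 7298 control and 4080 CFA barcodes with 48916096 and 22096268 UMIs (unique molecular identifiers, 1 for each captured RNA molecule), and 6695 and 3661 cells were kept, with a median of 1448 and 1192 UMIs. Of the kept barcodes, 22 occurred in both libraries. Cells fell into 10 types by marker genes, and 698 control and 147 CFA cells stayed in clusters with no name. Levels are given as CPM, the UMIs of a gene over all UMIs of the cells of the type, scaled to a total of 1000000, with exact 95% Poisson intervals. Of paired values, the first is that of the control and the second that of the CFA library. Shares of cells have Clopper-Pearson intervals, and all intervals cover counting error only.

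The members were sparse. Over both libraries, Calcrl had 626 UMIs in 477 of 10356 cells, Ramp1 130 UMIs in 96 cells, Ramp2 1697 UMIs in 1082 cells, Ramp3 196 UMIs in 107 cells, Crcp 2415 UMIs in 1054 cells and Adcyap1r1 147 UMIs in 115 cells. Among the cells with a Calcrl UMI, 76.9% had just 1. Calcr was close to unseen, with 1 UMI in the control library, in a cell left out by the filter on cells, and no UMI in the CFA library. A count of 0 over the kept cells allows up to 0.0622 CPM of Calcr in control and 0.139 CPM in CFA cells.

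In the GRCm38 build, taken from GENCODE M21, Calcrl lies at chr2:84330626-84425411 on the minus strand, Calcr at chr6:3685680-3764714 on the minus strand and Ramp1 at chr1:91179822-91225196 on the plus strand. Ramp2 lies at chr11:101246028-101259546, Ramp3 at chr11:6658521-6677475, Crcp at chr5:130029290-130060789 and Adcyap1r1 at chr6:55451978-55501451, all on the plus strand. Each count is for the whole gene, so a count does not tell which transcript was present.

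Calcrl, the subunit shared by the CGRP and adrenomedullin receptors described above, was highest in endothelial cells. There it stood at 256 CPM (214 to 304, 130 UMIs) and 246 CPM (192 to 311, 70 UMIs). Fibroblasts came next, with 86.4 CPM (70.3 to 105) and 65.2 CPM (46.8 to 88.4), and the intervals of the 2 types did not overlap in either library. Immune cells held 22.8 CPM (14.1 to 34.8) and 18.5 CPM (7.99 to 36.5). Neurons held 4.28 CPM (3.65 to 4.98) and 3.81 CPM (2.94 to 4.87), and their intervals lay below those of immune cells in both libraries.

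Glia were near or at 0 for Calcrl. Satellite glial cells, which wrap the neuron bodies, had 2 UMIs in 933 control cells and 0 in 450 CFA cells, which allows a share of up to 0.667% of the CFA cells. Non-myelinating Schwann cells and oligodendrocytes had 0 UMIs in both libraries, and myelinating Schwann cells had 3 and 1. In mural cells, the contractile cells of vessels, Calcrl stood at 78.4 CPM (33.8 to 154) from 8 UMIs in the control, whereas the 23 CFA mural cells had none, which allows up to 94.9 CPM. The CFA erythroid cells, a type that should lack the gene, had 5 Calcrl UMIs in 3 of 98 cells, or 36.4 CPM (11.8 to 85.0), and the 53 control erythroid cells had none. The CFA interval of erythroid cells overlaps those of fibroblasts and of immune cells, so neither level is separated from it in that library, whereas that of endothelial cells lies above it.

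**Figure D1:**
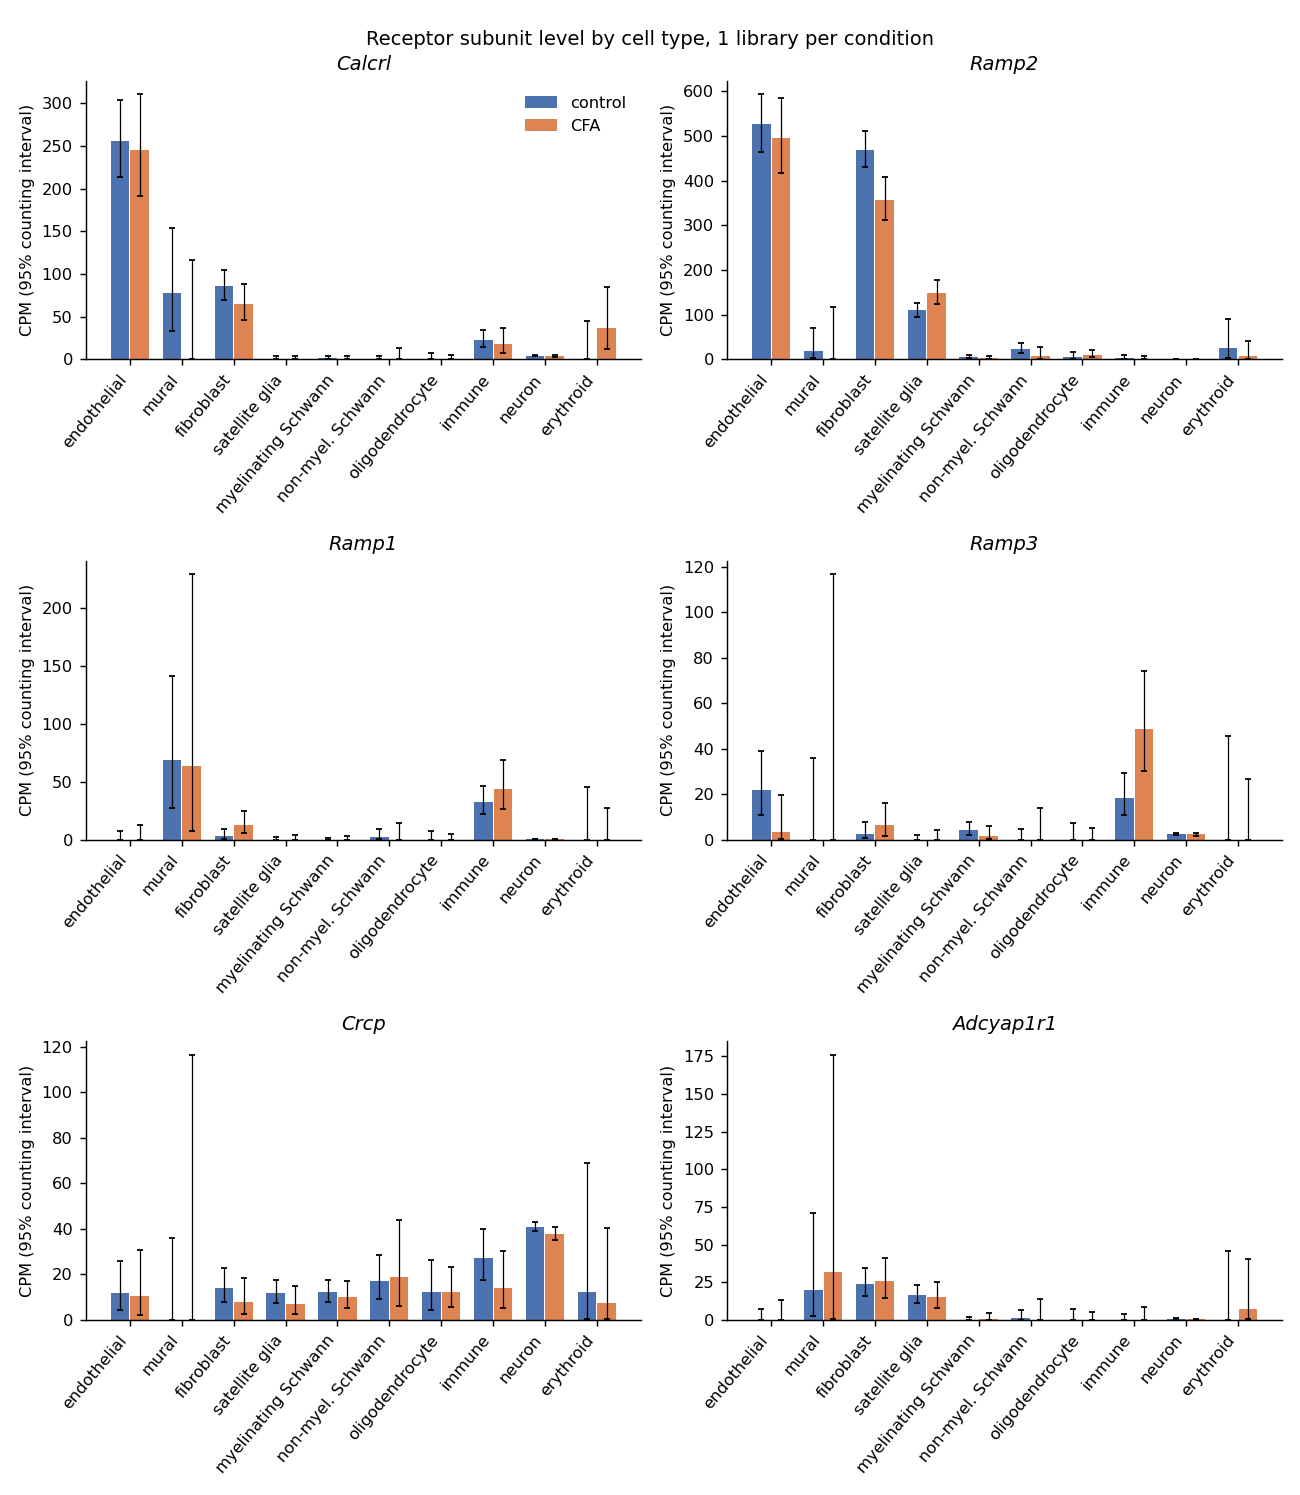
Level of 6 receptor genes (y axis, CPM of summed UMIs) in 10 cell types (x axis), with a blue bar for the control and an orange bar for the CFA library and lines for exact 95% Poisson intervals. Calcrl peaks in endothelial cells (256 and 246 CPM), Ramp2 in endothelial cells and fibroblasts, and Crcp in neurons (40.9 and 37.9 CPM), while the wide lines of mural and erythroid cells come from few UMIs.

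Neurons are large and were sequenced far more deeply than the other cells (median 44146.5 and 36675.5 UMIs a cell, against 1383 and 1555 in endothelial cells). They therefore held much of the Calcrl RNA in spite of the low CPM, 38.3% of control and 32.8% of CFA Calcrl UMIs, against 30.2% and 35.9% in endothelial cells. Thinned to 500 UMIs a cell, 11.4% (7.99 to 15.6) of control and 12.0% (7.47 to 18.0) of CFA endothelial cells had a Calcrl UMI, but 0.244% (0.0288 to 0.885) and 0.198% (0.00253 to 1.26) of neurons. The thinned shares in erythroid cells were 0% (0 to 6.85) and 1.30% (0.0642 to 6.01). The order of endothelial cells over neurons thus held at a fixed depth.

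Most endothelial cells were capillary cells, 252 of 294 in the control and 150 of 163 in the CFA library. Capillary cells held 266 CPM (219 to 321) and 263 CPM (204 to 335) of Calcrl, near the level of the whole type. A small vascular cluster led by Pi16 and Cytl1, left without a name, held 220 CPM in 20 control cells (10 UMIs) and 1 UMI in 6 CFA cells. The 10 endothelial markers summed to 0.935% of their endothelial level in control fibroblasts and 0.664% in CFA fibroblasts, with Kdr at 0 in the former and Flt1 and Egfl7 at 0 in the latter, while Calcrl stood at 33.7% and 26.5% of its endothelial level.

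Among immune cells, macrophages held 39.7 CPM (21.2 to 68.0) of Calcrl in the control, from 13 UMIs, and 18.7 CPM (6.07 to 43.6) in the CFA library, from 5 UMIs. Neutrophils had 4 and 1 UMIs, and monocytes or dendritic cells 4 and 1. The vascular cells were clustered again as a whole, so a few pericytes came from the endothelial type. In control pericytes, 9 UMIs lay in 3 of 40 cells, which gives 202 CPM (92.6 to 384), and the 16 CFA pericytes had none. These groups are small, and none of their intervals separates the libraries.

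Within neurons, Calcrl differed between subtypes. Subtypes were named by markers. The names are those of the study, except that neurons with Trpm8, which the study places within NF, form a type of their own here and a list for another peptidergic group, PEP-A, was added. They were PEP1 and PEP2 for peptidergic neurons, NP1 and NP2 for nonpeptidergic neurons, cLTMR for C-fibre low-threshold mechanoreceptors, NF for Nefh-positive neurons and Trpm8 for neurons with the cold-gated channel of that name. PEP1 neurons held 6.95 CPM (5.58 to 8.57, 63 of 333 cells) and 5.18 CPM (3.57 to 7.28, 24 of 195 cells). cLTMR neurons had 1 UMI in 72 control cells, or 0.254 CPM (0.00643 to 1.41), and 0 in 48 CFA cells, which allows up to 1.38 CPM. The PEP1 level lay above the cLTMR level in both libraries with no overlap of intervals.

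NP1 neurons held 2.31 CPM (1.52 to 3.36) and 3.51 CPM (1.92 to 5.88) of Calcrl, and NP2 neurons 3.59 CPM (1.91 to 6.14) and 2.21 CPM (0.268 to 7.99). Trpm8 neurons had 4 control UMIs and no CFA UMI, and NF neurons had none in either. A neuron cluster left without a name because PEP-A and PEP1 markers scored alike, cluster 8 with Cdhr1, Serpinb1a and Ptk2b as leading genes, held 10.3 CPM (6.10 to 16.3) and 10.5 CPM (4.79 to 19.9). Another unnamed one, cluster 9 with the interferon-response genes Iigp1, Gbp2 and Gbp4 in the lead, held 9.43 CPM (4.52 to 17.3) and 11.2 CPM (3.05 to 28.6).

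The endothelial markers were not higher in PEP1 than in cLTMR neurons. They summed to 93.0 CPM in control and 70.3 CPM in CFA PEP1 neurons, with 1 and 0 of the 10 markers at 0, and to 96.2 CPM and 90.4 CPM in cLTMR neurons, with 2 and 4 at 0. The median depth was 35243 and 30820 UMIs in PEP1 and 53290 and 47582.5 UMIs in cLTMR neurons. The parts of depth and of endothelial RNA in the Calcrl difference between these subtypes were not tested.

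**Figure D2:**
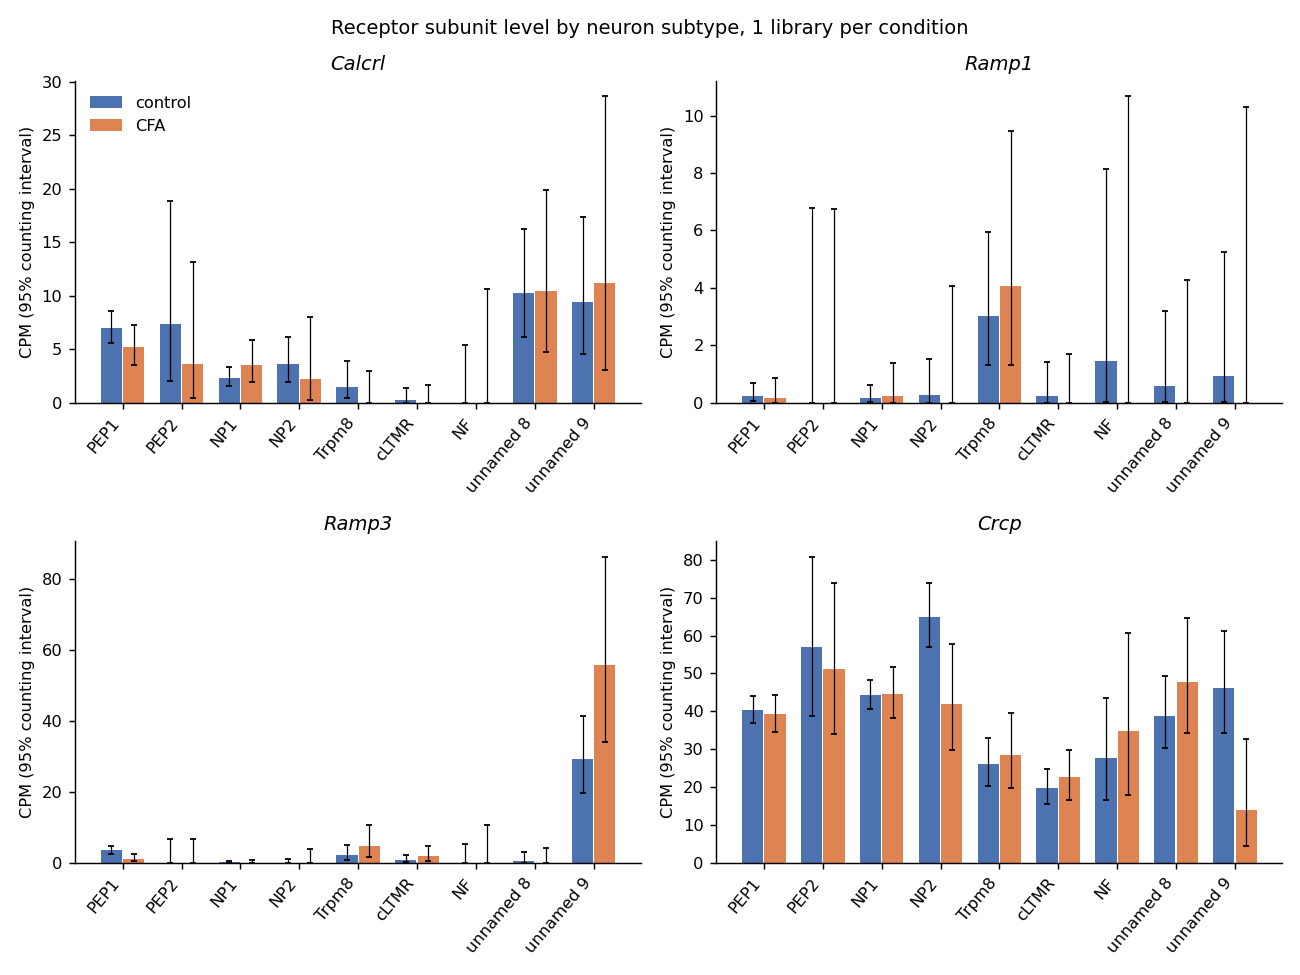
Level of Calcrl, Ramp1, Ramp3 and Crcp (y axis, CPM) in the 7 named neuron subtypes and 2 unnamed neuron clusters (x axis), with a blue bar for the control and an orange bar for the CFA library and lines for exact 95% Poisson intervals. Calcrl is at or near 0 in cLTMR neurons and at 0 in CFA Trpm8 neurons and in NF neurons, the last from 17 and 6 cells. Ramp1 is highest in Trpm8 neurons (3.02 and 4.06 CPM), Ramp3 is highest in cluster 9, and Crcp is present in every subtype.

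Ramp2, whose product makes the first adrenomedullin receptor with the Calcrl protein, was the most abundant Ramp by UMIs. Endothelial cells held 526 CPM (465 to 593) and 495 CPM (417 to 584). Fibroblasts held 470 CPM (431 to 511) and 358 CPM (312 to 407). The intervals of the 2 types overlapped in the control, whereas with CFA that of fibroblasts lay below. Satellite glial cells came next, below both, with 110 CPM (95.5 to 125) and 149 CPM (125 to 177). Lower still were non-myelinating Schwann cells, at 23.2 CPM (14.0 to 36.2) and 7.55 CPM (0.915 to 27.3), which overlapped the control level of erythroid cells at 24.8 CPM.

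The Ramp2 of satellite glial cells stood without Calcrl. It was found in 178 of 933 control cells (19.1%, 16.6 to 21.7) and 106 of 450 CFA cells (23.6%, 19.7 to 27.8), and none of these had a Calcrl UMI. In erythroid cells the shares were 3.77% (0.460 to 13.0) and 1.02% (0.0258 to 5.55), at median depths of 1109 and 1198 UMIs against 1960 and 1758.5 in satellite glial cells. At 500 UMIs a cell the shares were 5.08% (3.76 to 6.70) and 6.88% (4.71 to 9.63) in satellite glial cells and 0.574% (5.72e-06 to 7.94) and 0.306% (3.28e-06 to 4.29) in erythroid cells.

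Fibroblast markers in satellite glial cells summed to 1.11% and 1.22% of their fibroblast level, with Fbln1 and Dpt at 0 in both and Igfbp6 also at 0 in the latter. Ramp2 stood at 23.3% and 41.8% of its fibroblast level there. In non-myelinating Schwann cells, by contrast, the markers reached 4.87% and 5.12% and Ramp2 4.94% and 2.11% of the fibroblast level. Of the clusters without a name, cluster 7, of 341 control and 10 CFA cells led by interferon-response genes, held 81.1 CPM (61.3 to 105) of Ramp2 in the control from 56 UMIs.

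Ramp1, the subunit that makes the CGRP receptor, had few UMIs and lay outside the cells with most Calcrl. Endothelial cells had no Ramp1 UMI in 294 control and 163 CFA cells, which allows up to 5.91 and 10.5 CPM, and satellite glial cells had none in 933 and 450 cells. Mural cells held 68.6 CPM (27.6 to 141) from 7 UMIs and 63.3 CPM (7.66 to 229) from 2 UMIs, all of them in smooth muscle cells, where the level was 118 CPM (47.5 to 243) and 120 CPM (14.5 to 432). Immune cells held 32.5 CPM (21.9 to 46.4) and 44.0 CPM (26.5 to 68.7). The intervals of mural and immune cells overlapped, and those of immune cells lay above fibroblasts, at 3.49 CPM (0.952 to 8.94) and 12.7 CPM (5.49 to 25.1).

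Within immune cells, Ramp1 was spread over several kinds. T or NK cells held 59.5 CPM (23.9 to 123) and 65.3 CPM (13.5 to 191), monocytes or dendritic cells 44.4 CPM (23.6 to 75.9) and 111 CPM (44.7 to 229), and macrophages 27.5 CPM (12.6 to 52.2) and 29.9 CPM (12.9 to 59.0). Mural markers in immune cells summed to 27.1 and 23.1 CPM, with 6 of 10 at 0 in each library. Neurons held 0.467 CPM (0.277 to 0.737) and 0.417 CPM (0.168 to 0.860). Trpm8 neurons stood out among them, with 3.02 CPM (1.31 to 5.96) from 8 UMIs in 6 of 61 control cells and 4.06 CPM (1.32 to 9.48) from 5 UMIs in 4 of 36 CFA cells. In PEP1 neurons Ramp1 had 3 UMIs in 333 control and 1 in 195 CFA cells, 0.237 CPM (0.0489 to 0.693) and 0.157 CPM (0.00398 to 0.875), below the Trpm8 interval in both libraries.

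Ramp3, whose product makes the second adrenomedullin receptor, was found in immune cells, at 18.4 CPM (10.7 to 29.5) and 48.6 CPM (30.1 to 74.3), and in few neurons. The neurons, which were far deeper, held 68.5% of control and 57.6% of CFA Ramp3 UMIs, against 13.1% and 31.8% in immune cells. In immune cells the Ramp3 UMIs came from T or NK cells and from monocytes or dendritic cells. The macrophages (160 control and 151 CFA cells) had none. T or NK cells held 4 UMIs in 3 of 59 control cells, or 34.0 CPM (9.27 to 87.1), and 15 UMIs in 5 of 30 CFA cells, or 327 CPM (183 to 539). Endothelial cells held 21.7 CPM (10.8 to 38.8) from 11 control UMIs and had 1 CFA UMI.

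In neurons Ramp3 stood at 2.31 and 2.26 CPM, concentrated in few cells. Cluster 9 held 31 UMIs in 6 of 27 control cells, 1 of them with 13, or 29.2 CPM (19.9 to 41.5), and 20 UMIs in 9 of 14 CFA cells, or 55.9 CPM (34.1 to 86.3). PEP1 neurons held 46 UMIs in 21 cells and 8 UMIs in 7 cells, 3.64 CPM (2.66 to 4.85) and 1.26 CPM (0.542 to 2.47). NP1 neurons held 2 UMIs in 195 control cells and 0 in 68 CFA cells.

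The Ramp UMIs of each type therefore belonged to different members. In endothelial cells 96.0% of control and 99.3% of CFA Ramp UMIs were Ramp2, in fibroblasts 98.7% and 94.9%, and in satellite glial cells all of them. In immune cells Ramp1 made up 58.8% and 47.5% and Ramp3 33.3% and 52.5%. In neurons Ramp3 made up 68.5% and 65.5%. These are shares of captured molecules, and how well each of the 3 RNAs is captured was not measured.

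**Figure D3:**
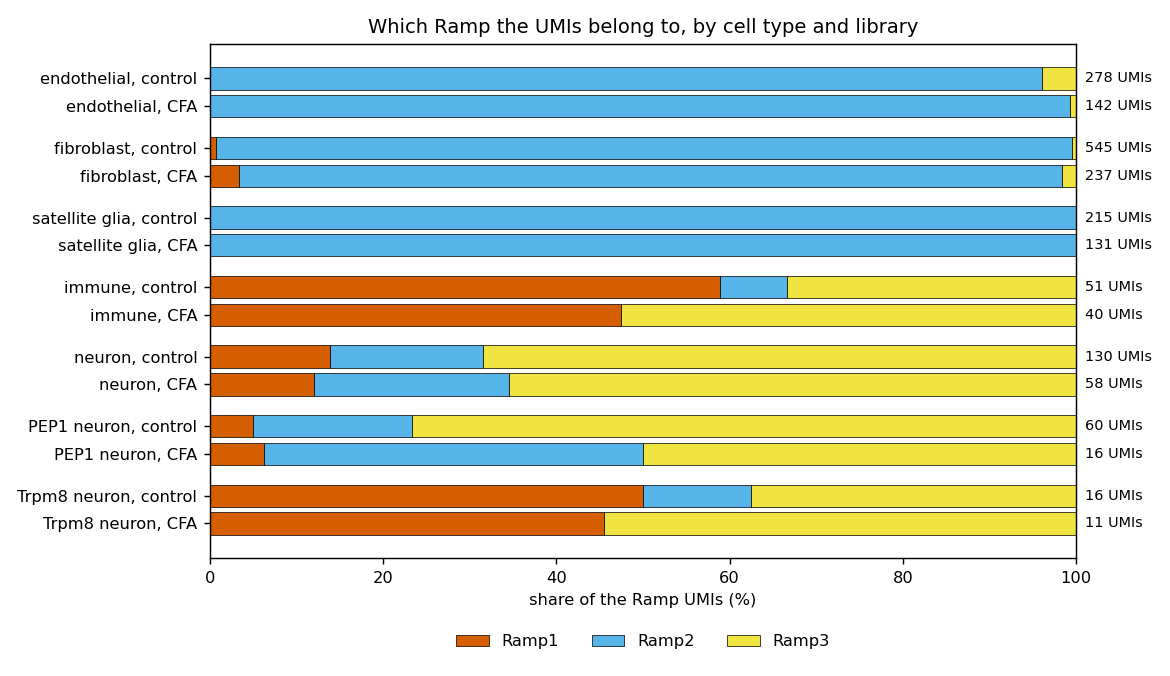
Share of the Ramp UMIs that belong to Ramp1, Ramp2 and Ramp3 (x axis, percent) in 5 cell types and 2 neuron subtypes of each library (y axis), with the number of Ramp UMIs at the right of each bar. Ramp2 fills the bars of endothelial cells, fibroblasts and satellite glia, while Ramp1 and Ramp3 fill most of those of immune cells and neurons.

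Crcp was found in 9 of the 10 cell types, all but mural cells, with its highest level in neurons. Neurons held 40.9 CPM (38.9 to 42.9) and 37.9 CPM (35.0 to 41.0), and 579 of 808 and 286 of 416 of them had a UMI. The next types were immune cells in the control, at 27.1 CPM, and non-myelinating Schwann cells in the CFA library, at 18.9 CPM (6.13 to 44.1), and the intervals of both overlapped those of neurons. Immune cells held 13.9 CPM in the CFA library, and satellite glial cells 11.7 CPM (7.44 to 17.6) and 6.84 CPM (2.51 to 14.9). Outside neurons Crcp stood between 28.7% and 66.3% of its neuron level in control and between 18.1% and 49.8% in CFA cells, leaving out mural cells, where it had no UMI in 68 control and 23 CFA cells. These counts of 0 allow up to 29.4 and 94.9 CPM, so they do not set mural cells apart from the other types outside neurons. Calca, the CGRP gene and a neuron gene, stood between 3.37% and 7.48% and between 1.11% and 4.65% in the other types, mural cells included.

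By subtype, Crcp was highest in NP2 neurons of the control, at 64.9 CPM (56.9 to 73.8), with 42.0 CPM (29.7 to 57.7) in the CFA library. PEP2 neurons held 56.9 CPM (38.7 to 80.8) and 51.1 CPM (34.0 to 73.9). NP1 neurons held 44.3 CPM (40.5 to 48.2) and 44.6 CPM (38.3 to 51.6), and PEP1 neurons 40.3 CPM (36.9 to 44.0) and 39.3 CPM (34.5 to 44.4). cLTMR neurons were low, at 19.8 CPM (15.6 to 24.7) and 22.6 CPM (16.7 to 29.9), below the NP1 and PEP1 intervals in both libraries, and Trpm8 neurons held 26.1 CPM (20.3 to 33.0) and 28.4 CPM (19.8 to 39.5).

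Adcyap1r1, the PACAP receptor gene, was found in fibroblasts, satellite glial cells and, from few UMIs, mural cells. Fibroblasts held 23.6 CPM (15.5 to 34.3, 27 UMIs) and 25.4 CPM (14.5 to 41.3, 16 UMIs). Satellite glial cells held 16.3 CPM (11.2 to 23.0, 32 UMIs) and 14.8 CPM (7.90 to 25.4, 13 UMIs), and the intervals of the 2 types overlapped. Mural cells had 2 control UMIs and 1 CFA UMI, or 19.6 CPM (2.37 to 70.8) and 31.6 CPM (0.801 to 176), which overlapped both. In satellite glial cells the level was 69.2% and 58.3% of the fibroblast level, against 1.11% and 1.22% for the fibroblast markers. Endothelial and immune cells had no Adcyap1r1 UMI in either library. In neurons it stood at 0.622 CPM (0.399 to 0.926) and 0.298 CPM (0.0968 to 0.695), and 20 of the 24 control UMIs lay in 7 PEP1 cells, 1 of which had 10.

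A small cluster without a name, cluster 21, held a higher CPM of Ramp1 and Adcyap1r1 than any named type. It had 13 control and 18 CFA cells, led by Lhfpl3, Olig1 and Cspg5, with Gpr17 and Olig2 also among its 10 top genes. Its best match among the marker lists was the satellite glial list, but no marker of that list was among these 10 genes. None of the 10 genes is on the marker list of any of the 10 named types. The cluster was left without a name because genes of an added check list, for none of these types, led them. Ramp1 stood at 154 CPM (61.8 to 317, 7 UMIs in 3 cells) and 414 CPM (265 to 616, 24 UMIs in 12 cells). Adcyap1r1 stood at 87.9 CPM (23.9 to 225, 4 UMIs in 3 cells) and 310 CPM (184 to 491, 18 UMIs in 9 cells). In the control the intervals of both genes overlapped those of mural cells. The cluster held 24 of the 60 Ramp1 UMIs and 18 of the 56 Adcyap1r1 UMIs of the CFA library. Calcrl was also found there, with 1 UMI in the 13 control cells. In the CFA library it had 4 UMIs in 3 of the 18 cells, or 69.0 CPM (18.8 to 177).

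Cells with both Calcrl and a Ramp were mostly endothelial cells and fibroblasts, with Ramp2. Of 320 control and 157 CFA cells with a Calcrl UMI, 111 and 63 also had a Ramp UMI. Endothelial cells made up 43.2% (33.9 to 53.0) and 52.4% (39.4 to 65.1) of these, and fibroblasts 41.4% (32.2 to 51.2) and 33.3% (22.0 to 46.3). Among endothelial cells, 47 of 294 (16.0%, 12.0 to 20.7) and 33 of 163 (20.2%, 14.4 to 27.2) had both Calcrl and Ramp2. Among fibroblasts, 46 of 593 (7.76%, 5.73 to 10.2) and 21 of 403 (5.21%, 3.25 to 7.86) had both. No endothelial cell had Calcrl and Ramp1 together, since none had Ramp1. In erythroid cells the share with both Calcrl and Ramp2 was 0 of 53 in the control, which allows up to 5.66%, and 1 of 98 in the CFA library (1.02%, 0.0258 to 5.55).

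At a fixed depth, the joint share of Calcrl and Ramp2 lay near the product of their single shares, but with wide intervals. Endothelial cells with Calcrl had a Ramp2 UMI more often than those without, 54.0% (43.0 to 64.8) against 41.5% (34.8 to 48.6) in control and 33 of 55 cells (45.9 to 73.0%) against 39.8% (30.5 to 49.7) in CFA cells, but they were also deeper, with medians of 1876 against 1246 and 1729 against 1517 UMIs. Thinned to 500 UMIs, the shares were 23.1% against 20.7% and 24.3% against 19.8%, and the joint share was 2.63% (1.12 to 5.17) and 2.92% (0.923 to 6.82), beside 2.39% and 2.45% from the product of the single shares. In thinned fibroblasts the joint share was 0.717% (0.203 to 1.79) and 0.596% (0.0919 to 1.95), beside products of 0.771% and 0.577%. These intervals treat the expected number of cells as a count, and cannot tell a joint share moderately above or below the product from one equal to it. At their own depth, which was not matched, 46 of 85 control fibroblasts with Calcrl had Ramp2, against 291 of all 593. In the CFA library the counts were 21 of 37, against 150 of all 403. With most cells at 1 UMI or none, a cell without a UMI cannot be read as one without the RNA.

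**Figure D4:**
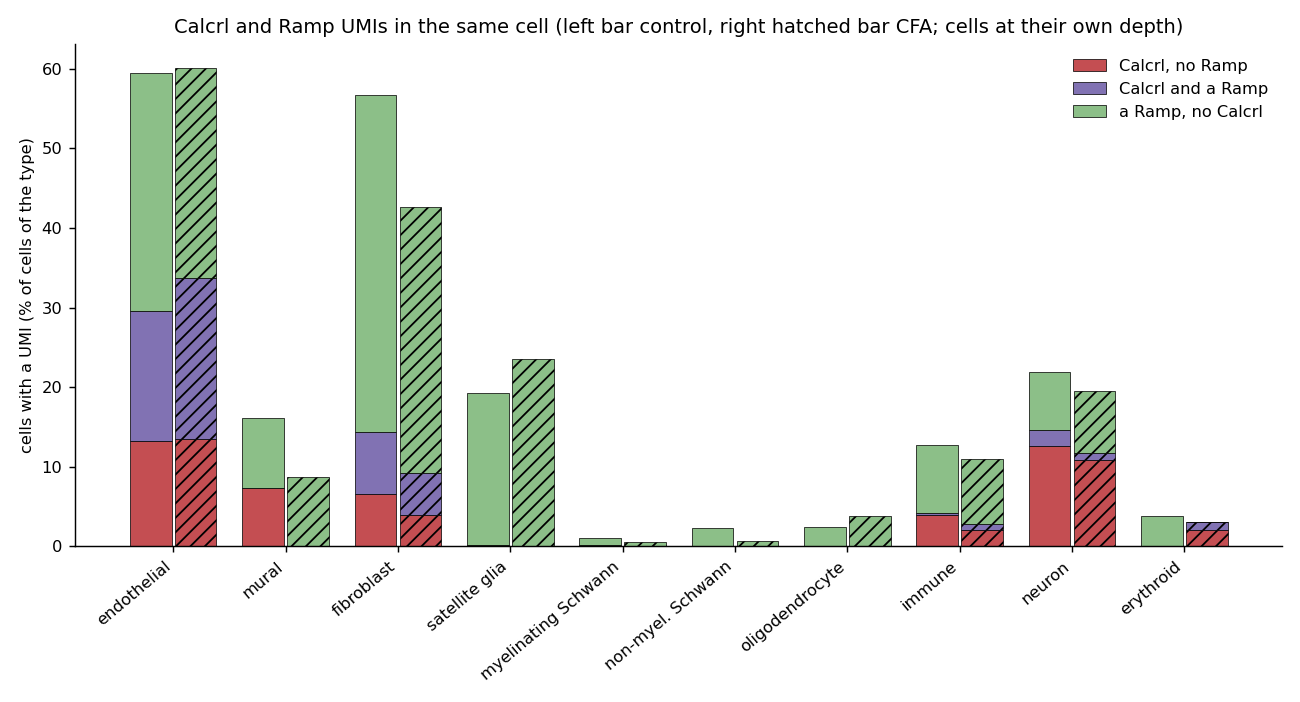
Share of cells (y axis, percent of the cells of a type) with a Calcrl UMI but no Ramp UMI (red), both (purple) or a Ramp UMI but no Calcrl UMI (green), by cell type (x axis), with the left bar for the control and the hatched right bar for the CFA library. Endothelial cells and fibroblasts have the largest purple parts, satellite glia have green alone apart from 2 control cells, and neurons, which were far deeper, have mostly red.

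Neurons with Calcrl seldom had a Ramp UMI in spite of their depth. In the control 16 of 118 Calcrl-positive neurons (13.6%, 7.95 to 21.1) had one, 8 with Ramp1, 6 with Ramp3 and 2 with Ramp2, and in the CFA library 4 of 49 (8.16%, 2.27 to 19.6), 1 with Ramp1, 2 with Ramp3 and 1 with Ramp2. Ramp1 was found in 8 of 118 control neurons with Calcrl (6.78%, 2.97 to 12.9) and in 8 of 690 without (1.16%, 0.502 to 2.27), and these intervals did not overlap. In the CFA library the counts were 1 of 49 and 5 of 367. The other Ramps did not show this in the control. Ramp3 was found in 6 of the 118 neurons with Calcrl and in 39 of all 808 neurons, and Ramp2 in 2 and 22. The control neurons with Calcrl had a median of 49086 UMIs against 43495.5 without.

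The neurons with Calcrl and Ramp1, the pair that makes a CGRP receptor, were spread over subtypes, with 2 PEP1, 2 Trpm8, 1 NP1, 1 NP2 and 1 each of clusters 8 and 9 in the control, and 1 NP1 neuron in the CFA library. In the whole control library 9 cells had this pair, 8 neurons and 1 immune cell. In the CFA library 4 cells had it, 2 immune cells, 1 neuron and 1 cell of the unnamed cluster 21. These counts are at each cell's own depth, so they favour neurons, with a median of 44146.5 control UMIs against 1266.5 in mural cells. No mural cell had the pair in either library. Among control mural cells 5 of 68 had Calcrl and 5 of 68 had Ramp1, too few to expect a cell with both. Calcrl with Ramp3 was found in 10 control cells, 6 neurons and 4 endothelial cells, and in 3 CFA cells. Thinned to 5000 UMIs, 2.40% (1.45 to 3.72) of control and 1.97% (0.855 to 3.86) of CFA neurons had Calcrl, 1.73% (0.939 to 2.90) and 2.44% (1.17 to 4.46) had a Ramp, and 0.0516% and 0.0968% had both, which is under 1 cell in each library.

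The CFA library was then set beside the control for each member and type with at least 30 UMIs over both, which gave 24 pairs of 6 members in 14 types. A pair was called past the fold when the level differed by 1.5-fold or more, and 7 of the 24 were. The interval of the log2 ratio lay off 0 for 7, and 5 met both. Neurons were compared by subtype, since Gap43 and Gfra3, on the marker list of non-myelinating Schwann cells, were among the leading genes of a neuron cluster. That cluster, led by Trpa1 and Tac1, had a median of 37420 UMIs and scored highest as neuron (0.845 against 0.468). Among all genes with as many UMIs, the share past the same fold ran from 10.5% in NP1 neurons to 32.0% in immune cells, so calls of this kind were common.

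In endothelial cells, where 25.2% of genes were past the fold, neither member was. The log2 ratio of CFA over control was -0.06 (-0.50 to 0.37) for Calcrl and -0.09 (-0.39 to 0.21) for Ramp2, and -0.01 and -0.04 in capillary cells alone. Both intervals lay within 1.5-fold.

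In fibroblasts 23.0% of genes were past the fold and 0 of 3 members were. The log2 ratio was -0.41 (-0.97 to 0.13) for Calcrl, -0.39 (-0.62 to -0.17) for Ramp2 and 0.11 (-0.88 to 1.05) for Adcyap1r1. The Ramp2 interval lay below 0, at a level 0.761 times that of the control. The make-up of the fibroblasts differed, since endoneurial fibroblasts were 443 of 593 control and 189 of 403 CFA cells, and a cluster led by Ptgds and Mbp held 112 and 164. Within endoneurial fibroblasts the Ramp2 ratio was -0.55 (-0.86 to -0.25) and in that cluster -0.35 (-0.90 to 0.21).

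In satellite glial cells 16.9% of genes were past the fold and 0 of 2 members were. Ramp2 stood at 1.36 times its control level, with a log2 ratio of 0.45 (0.12 to 0.77), and Adcyap1r1 at -0.14 (-1.19 to 0.83). Without the cells that carried 3 or more markers of another type, both were past the fold, at 0.89 for Ramp2 and -1.08 for Adcyap1r1. In myelinating Schwann cells, where 19.0% of genes were past the fold, Crcp stood at -0.30 (-1.41 to 0.73).

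In immune cells 32.0% of genes were past the fold, and 2 of 3 members were. Ramp3 rose, from 17 UMIs in 11 cells to 21 UMIs in 8 cells, at a log2 ratio of 1.40 (0.41 to 2.41). Crcp fell from 25 to 6 UMIs, at -0.96 (-2.54 to 0.36), with 0 inside the interval. Ramp1 stood at 0.44 (-0.48 to 1.31). The make-up of the immune cells differed, with 160 control and 151 CFA macrophages, 85 and 23 monocytes or dendritic cells, 59 and 30 T or NK cells and 48 and 16 B cells, and 34 of the control monocytes or dendritic cells formed a cluster with no CFA cell. Ramp3 in monocytes or dendritic cells stood at 44.4 CPM (23.6 to 75.9) and 95.2 CPM (34.9 to 207), which overlapped, and in T or NK cells the intervals given above did not. Crcp in macrophages stood at 27.5 CPM (12.6 to 52.2) and 15.0 CPM (4.08 to 38.3), and in B cells and T or NK cells it had 4 control UMIs each and no CFA UMI. Of the 21 CFA Ramp3 UMIs, 15 lay in 5 T or NK cells, with up to 5 in a cell, so the ratio rests on few cells. Without the cells that carried 3 or more markers of another type, the control levels of Ramp1 and Ramp3 were 49.8 and 9.95 CPM and the Ramp3 ratio was 2.71.

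In PEP1 neurons 11.0% of genes were past the fold and 1 of 3 members was. Ramp3 fell, at a log2 ratio of -1.53 (-2.83 to -0.44), while Calcrl stood at -0.42 (-1.05 to 0.17) and Crcp at -0.04 (-0.26 to 0.18). The 46 control Ramp3 UMIs lay in 21 of 333 cells, with up to 9 in a cell, and the 8 CFA UMIs in 7 of 195 cells. The Ramp3 ratio thus rests on few cells, and its interval does not cover the spread between cells. PEP1 joins 4 neuron clusters in different shares, and the part of this make-up in the ratio was not tested. The CPM of Ramp3 was lower in CFA than in control cells of each cluster, but these are parts of the same few UMIs. Ramp3 had 18 and 7 UMIs in 98 and 73 cells of the cluster led by Dcn and Cartpt, and 8 and 1 in 97 and 72 cells of that led by Sstr2. It had 17 and 0 in 93 and 32 cells of that led by Chrna3 and Nos1, and 3 and 0 in 45 and 18 cells of that led by Mfap5. In the first of these the level was 5.07 CPM (3.00 to 8.01) and 2.97 CPM (1.19 to 6.12), with overlapping intervals. In cluster 9, where 28.9% were past the fold, Ramp3 rose at 0.94 (0.05 to 1.79) and Crcp fell at -1.72 (-3.41 to -0.41). Both ratios rest on few cells of unlike depth, with a median of 39097 UMIs in 27 control and 15041 in 14 CFA cells. Crcp had 49 UMIs in 23 of these control cells and 5 UMIs in 4 of the CFA cells. In NP1 neurons, at 10.5%, Calcrl rose at 0.60 (-0.44 to 1.58) from 27 and 14 UMIs, with 0 inside the interval, and was at 0.47, under the fold, in cells thinned to 5000 UMIs. Crcp stood there at 0.01 (-0.24 to 0.26). In NP2 neurons, at 15.1%, Crcp fell at -0.63 (-1.16 to -0.13), from 235 UMIs in 53 control cells and 38 UMIs in 16 CFA cells, and was at -0.58, just under the fold, with the stricter filter on cells (300 genes and 10% mitochondrial counts).

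For the other subtypes Crcp was the member compared, and it was not past the fold in any of them. The log2 ratio was 0.32 (-0.85 to 1.44) in NF neurons, where 24.3% of genes were past the fold, -0.16 (-0.95 to 0.63) in PEP2 neurons, at 18.5%, and 0.12 (-0.51 to 0.73) in Trpm8 neurons, at 13.2%. It was 0.19 (-0.36 to 0.72) in cLTMR neurons, at 11.0%, and 0.29 (-0.30 to 0.87) in cluster 8, at 15.8%.

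**Figure D5:**
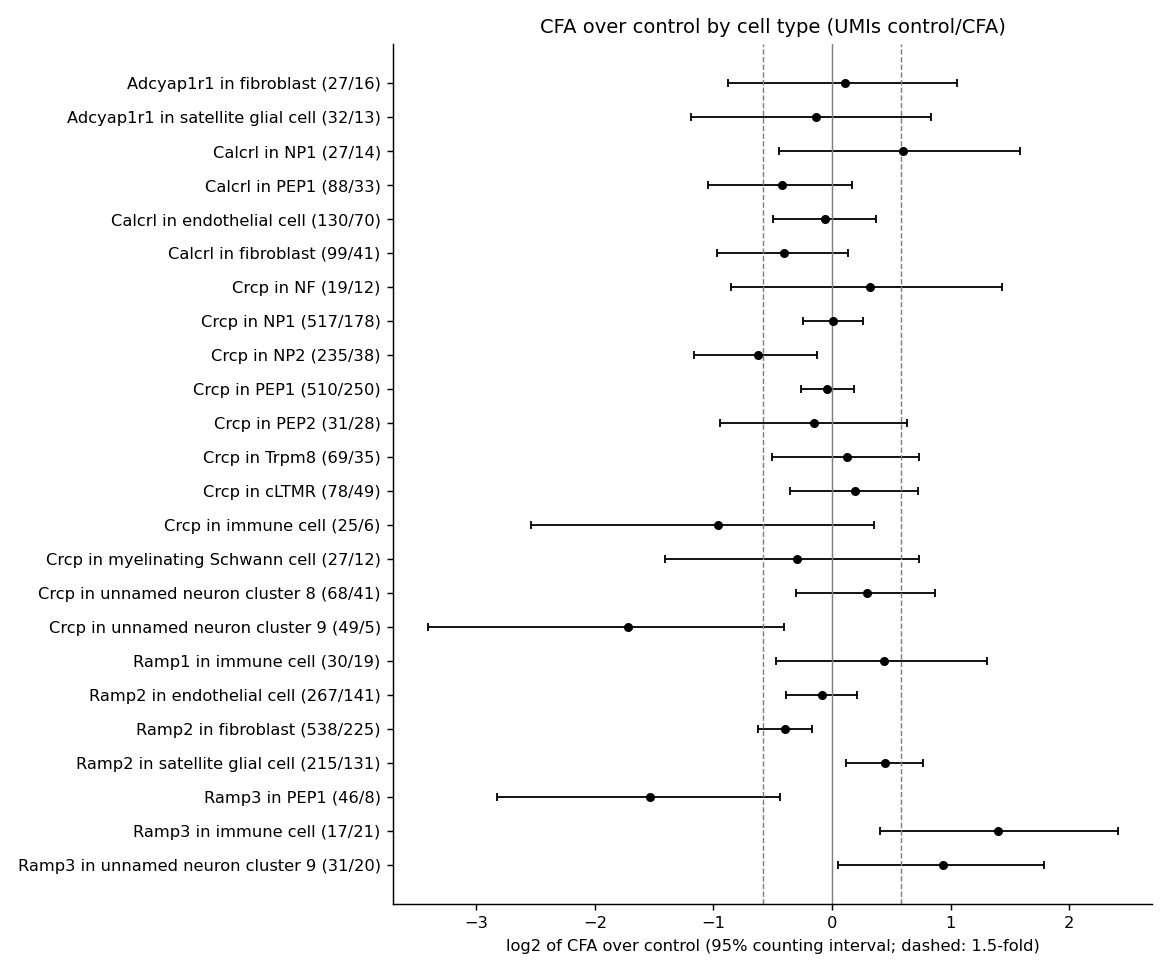
Log2 ratio of CFA over control (x axis) for the 24 pairs of member and cell type (y axis) with at least 30 UMIs over both libraries, with points for the ratio, lines for its exact 95% interval, dashed lines at 1.5-fold and the UMIs of each library in brackets. Most lines cross 0, and Ramp3 lies to the right in immune cells and cluster 9 and to the left in PEP1 neurons.

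The ligands of these receptors had another distribution. Calca, which codes for alpha-CGRP, stood at 5473 CPM in control and 4763 CPM in CFA neurons. PEP1 neurons held 11663 and 9436 CPM, NP1 neurons 1168 and 913 CPM and cLTMR neurons 182 and 53.9 CPM. The level did not follow the peptidergic and nonpeptidergic names. In the CFA library NP2 neurons held 4024 CPM (3894 to 4157) of Calca, and the 11 PEP2 neurons 45.6 CPM (29.5 to 67.4). Calcb, for beta-CGRP, stood at 457 and 350 CPM in neurons, and Adcyap1, for PACAP, at 788 and 866 CPM, with 2005 and 2022 CPM in PEP1 neurons. Adm, for adrenomedullin, stood at 149 and 137 CPM in fibroblasts and 88.7 and 112 CPM in endothelial cells, against 0.804 and 0.596 CPM in neurons. The first 2 are the types with the highest levels of Calcrl and Ramp2. But Adm also had at least 30 UMIs over both libraries in myelinating Schwann cells, where Calcrl had 3 and 1. Adm2 and Vip had few UMIs, with no type above 7.03 CPM in either library.

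Calca was also found in every other type, at 185 to 410 CPM in control and 52.7 to 221 CPM in CFA cells. Its log2 ratio was past the fold in endothelial cells at -2.32 (-3.20 to -1.55), fibroblasts at -1.49 (-1.90 to -1.11) and immune cells at -2.42 (-2.98 to -1.91), against -0.31 (-0.32 to -0.29) in PEP1 neurons. Erythroid cells, which should lack Calca, held 334 and 102 CPM. The 10 neuron markers together stood at 733 and 232 CPM in endothelial cells and 749 and 310 CPM in fibroblasts. In immune cells they stood at 946 and 361 CPM and in erythroid cells at 1127 and 459 CPM. Oligodendrocytes held 1194 and 1212 CPM of these markers, and neurons 16032 and 15731.5 CPM. The part of free RNA in the Calca level of other types, or in its ratio, was not tested.

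Of the related receptors, Gpr182, once proposed as an adrenomedullin receptor, stood at 148 and 106 CPM in fibroblasts and 11.8 and 10.5 CPM in endothelial cells. Ackr3, which codes for an atypical receptor that takes up adrenomedullin and chemokines, stood at 127 and 158 CPM in mural cells, 77.7 and 47.7 CPM in fibroblasts, 53.1 and 89.0 CPM in satellite glial cells and 27.6 and 70.3 CPM in endothelial cells. Ackr3 rose in satellite glial cells at a log2 ratio of 0.75 (0.30 to 1.18) and in endothelial cells at 1.35 (0.29 to 2.45), and fell in fibroblasts at -0.70 (-1.35 to -0.09). The VIP receptor genes Vipr1 and Vipr2 had at most 4.63 CPM and 39.2 CPM in any type, the latter in control mural cells.

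The wider pathway was taken as 48 genes, namely ligands, related receptors, peptidases that cut the peptides, the G protein and adenylyl cyclases, protein kinase A, Epac and CREB, desensitization genes and phosphodiesterases. In endothelial cells 19 had enough UMIs, of which 4 rose and 2 fell, with a median log2 ratio of 0.10 against 0.04 for all genes tested. In fibroblasts 0 of 30 rose and 6 fell (median -0.22 against 0.02), in satellite glial cells 2 of 28 rose and 6 fell (-0.14 against 0.03), in myelinating Schwann cells 0 of 30 rose and 7 fell (-0.08 against 0.05), and in immune cells 1 of 23 rose and 6 fell (-0.09 against -0.10). In PEP1 neurons 0 of 36 rose and 1 fell (-0.06 against -0.01). Of all genes tested, 567 rose and 587 fell of 4580 in endothelial cells, 856 and 868 of 7491 in fibroblasts and 763 and 712 of 8726 in satellite glial cells. In myelinating Schwann cells 840 rose and 843 fell of 8856, in immune cells 729 and 1359 of 6515 and in PEP1 neurons 607 and 828 of 13003. Calca was among the genes that fell in each of the 5 other types. The 10 neuron markers together were also lower in CFA cells of these types, with the values of endothelial, fibroblast and immune cells given above. They stood at 624 and 315 CPM in satellite glial cells and 775 and 400 CPM in myelinating Schwann cells. The part of neuron RNA in the counts of genes that fell was not tested.

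Crem, a cAMP-responsive transcription factor, was past the fold in 4 of these 5 types. It fell in endothelial cells from 148 to 63.2 CPM at -1.22 (-2.05 to -0.47), in fibroblasts at -0.97 (-1.94 to -0.09), in satellite glial cells at -0.90 (-1.65 to -0.22) and in myelinating Schwann cells at -1.08 (-1.38 to -0.78), as it did in PEP1 neurons at -0.61 (-0.86 to -0.38). In immune cells, where it was highest, it stood at 313 and 255 CPM, or -0.30 (-0.63 to 0.02).

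The other leading genes of the pathway also differed by type. Over both libraries, the cyclase gene with the highest level was Adcy4 in endothelial cells at 85.9 CPM, Adcy5 in fibroblasts at 180 CPM, Adcy2 in satellite glial cells at 40.9 CPM and Adcy7 in immune cells at 108 CPM, and Gnas, the stimulatory G protein, led in all of them, from 1120 CPM in immune cells to 4083 CPM in neurons. Ece1, a peptidase of the endosome that degrades CGRP, stood at 415 CPM in endothelial cells, 295 CPM in satellite glial cells and 230 CPM in fibroblasts, and Dpp4 at 58.1 CPM in endothelial cells. Mme, or neprilysin, was a gene of myelinating Schwann cells, at 283 and 363 CPM. Of the protein kinase A subunits, Prkar1a led in endothelial cells (432 CPM), fibroblasts (305 CPM), satellite glial cells (679 CPM), immune cells (416 CPM) and neurons (1153 CPM), with Prkacb next in the first 4 and Prkar1b, at 697 CPM, in neurons.

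Pde4b was the leading phosphodiesterase of immune cells at 250 CPM, with Pde3b next at 136 CPM, and stood at 39.1 CPM in endothelial cells. Grk2, a kinase that desensitizes receptors, stood at 236 CPM in neurons and 232 CPM in immune cells, with Arrb1 next in neurons at 142 CPM and Arrb2 next in immune cells at 147 CPM. Rapgef4, an Epac, led its list in neurons at 64.8 CPM. In fibroblasts no gene of the desensitization list stood above Arrb1 at 35.5 CPM.

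The genes whose levels were most like each member were searched over 10 types in 2 libraries, 20 points that share their library and depth, as log2(CPM + 1). Pearson's r with Calcrl was 0.89 for Gbp4, 0.88 for Ly6e and 0.86 for Ccn2. For Ramp2 it was 0.91 for Crispld1, 0.87 for Fat4 and 0.86 for Jam2, for Ramp1 0.91 for Thbs1, 0.91 for Ggt5 and 0.89 for Ifitm1, and for Ramp3 0.90 for Ptgs1, 0.88 for Rpl34 and 0.85 for Rpl17. For Crcp it was 0.96 for Ccdc25, 0.95 for Ppp1r11 and 0.94 for Zdhhc21, and for Adcyap1r1 0.90 for Pgf, 0.89 for Vstm4 and 0.86 for Col4a5. Between members, r was 0.49 for Calcrl with Ramp2, 0.27 with Ramp1 and 0.58 with Ramp3.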

How the data were processed

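The authors deposited UMI counts of each gene in each cell as whole numbers, not normalized, for 1 control and 1 CFA library. The submitters' processing notes name GRCm38 and fastp, and the gene annotation behind the counts is not given in the sources used here. Cells with under 150 genes or over 25% mitochondrial counts were left out, as in the methods, and 91.7% of control and 89.7% of CFA barcodes were kept, with 48233077 and 21658155 UMIs.

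Both libraries were clustered together with Seurat 5.3.0 in R 4.3.3 (2000 variable genes, 20 components, 20 neighbours, resolution 0.8, seed 1), without the members and pathway genes, and neurons, vascular, immune and fibroblast cells again. A cluster took the type whose markers had the highest scaled mean, with at least 3 markers detected. It stayed unnamed where a second type scored above 0.85 of that. The same held where another type, or an added check list, had more markers among its 10 top genes. It also held where median depth was under 0.333 of the library median and no own marker was among those genes. Neuron clusters were set first, and the other types were then scaled over the remaining clusters. For neuron clusters, markers of other types that were highest in a neuron cluster were not counted. Subtype names are those of the study, with Trpm8 neurons, which it places within NF, and PEP-A neurons added as types. Scrublet in scanpy 1.11.5 called 1 control and 4 CFA cells, too few for a working call, so doublets were kept.

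UMIs were summed per type and library. Cells are not replicates, so no test was made between conditions. The 95% intervals (scipy 1.17.1) of CPM are exact Poisson, those of ratios come from the binomial split of the UMIs, and shares have Clopper-Pearson intervals, and a count of 0 was given the limit of 3 counts. Thinned shares are the expected shares over all draws of 500 UMIs a cell (neurons also 5000), leaving out shallower cells. Their intervals take the expected number of cells, which is not a whole count, and so are approximate. The ratio step was tested on simulated data. In it, 3.47% of unchanged genes in PEP1 neurons and 13.3% in endothelial cells passed 1.5-fold by counting error.

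The named genes are the 7 members, the pathway lists with values for ligands, related receptors and the 2 highest genes of each list in the type described, and the 3 genes most like each member with at least 100 UMIs, among genes with at least 200 UMIs. Crem, Mme and Dpp4, values by subtype and the cells of cluster 21 were singled out after their values were seen. Adrbk1 and Adrbk2 are listed as Grk2 and Grk3, and Iapp was not matched and is not analysed here. The members and lists were chosen with earlier results of these data known.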

Additional observations from a re-analysis of the deposited data

Results flagged for a closer look

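For 2 members the libraries differed in opposite directions in different cell types. Ramp2 stood higher in CFA than in control satellite glial cells, at a log2 ratio of 0.45, and lower in CFA fibroblasts, at -0.39, and neither was past 1.5-fold, though without cells with markers of another type the former was, at 0.89. Ramp3 was higher in CFA immune cells, at 1.40, and in neuron cluster 9, at 0.94, and lower in PEP1 neurons, at -1.53. The difference between types was not tested for either member, since each ratio rests on 1 library per condition.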

How the results depend on the processing

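No paired analysis was possible because each condition has 1 library. Over 68 results and 17 alternatives, 695 values were recomputed, and 684 stayed within the interval of the main value and 11 moved. No ratio past the fold changed sign, while among the others 8 differed in sign between settings, with ranges that included 0, among them Ramp1 in immune cells (-0.10 to 0.53), Adcyap1r1 in satellite glial cells (-1.08 to 0.23) and Crcp in NF (-0.29 to 0.43) and Trpm8 neurons (-0.25 to 0.24). Without cells that carried 3 or more markers of another type, Ramp2 in control satellite glial cells stood at 85.4 CPM and its ratio at 0.89, Ramp1 and Ramp3 in control immune cells at 49.8 and 9.95 CPM and the Ramp3 ratio at 2.71, from fewer cells (645 of 933 control satellite glial cells and 150 of 410 control immune cells were left out). This alternative left out 801 of 808 control and all 416 CFA neurons and gave no neuron values. With every cell weighted equally, Crcp in control neurons stood at 38.1 CPM, and in cells thinned to one depth the Crcp ratio in NP1 neurons at 0.33. Thinned to 1000 UMIs, more cells held Calcrl with Ramp2, as deeper cells must, 7.33% and 9.43% of endothelial cells and 2.51% and 2.06% of fibroblasts in the control and CFA library.

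Some calls at 1.5-fold depended on the setting. The Crcp ratio in NP2 neurons was -0.58 with 300 genes and 10% mitochondrial counts, and the Calcrl ratio in NP1 neurons 0.47 in thinned cells, both no longer past the fold. Without cells with markers of another type, Calcrl in fibroblasts reached -0.77, Ramp2 in satellite glial cells 0.89 and Adcyap1r1 in satellite glial cells -1.08, and with the endoneurial fibroblasts alone, an alternative added after seeing the data, Adcyap1r1 reached 0.62. Without the immune cluster of control cells only, also added, the Ramp3 ratio was 1.38. The 2 unnamed neuron clusters were not followed under other clusterings. Few UMIs limit what can be said of Ramp1, Ramp3 and Adcyap1r1, few cells what can be said of mural cells, pericytes and cluster 21, and every ratio rests on 1 library per condition.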
